A study of Mus musculus with 9 samples.

Results

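Heat-shock proteins are chaperones: they hold, fold and refold other proteins, and several of them are made in larger amounts when a cell meets heat or another protein-damaging stress. Transcription of the inducible members is driven by heat-shock factors, which bind repeats of the letters GAA and TTC in alternating orientation, while constitutive relatives of the same families are made at high levels at all times. Heart muscle depends on them to assemble and maintain the sarcomere, and the mitochondrial HSP60 and HSP10 pair folds proteins imported into the organelle. The 10 genes described here are Hspa1a, Hspa1b, Hspa8, Hsph1 and Dnajb1 of the HSP70 system, Hsp90aa1 and Hsp90ab1 of the HSP90 family, the small heat-shock protein gene Hspb1, and Hspd1 and Hspe1, which encode HSP60 and HSP10. They were chosen by gene symbol, with earlier results of these data known, and all 10 were found among the 18738 genes of the table.

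The libraries were made from cardiomyocytes of newborn wild-type (WT) C57BL/6J mice, isolated at P0, the day of birth. From fertilization until birth the mothers had eaten, by random allocation, 1 of 3 foods: a high-fat diet (HFD), a slight high-fat diet (sHFD) or normal diet (ND). Each diet had 3 RNA-seq libraries. The pups carried no engineered allele, and the sources used here do not say whether the 3 libraries of a diet came from separate litters, animals or pools, so p-values measure the spread between these libraries, which may be technical. Expression was deposited in TPM, a level per unit of transcript length and relative to the library total, which keeps no read depth. The comparisons ask how the transcripts of newborn heart muscle cells differ with the mother's diet, a question the series raises for defective proliferation of heart muscle cells under HFD.

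One ND library was nearer to HFD than to the other ND libraries. Across genes, the log2(TPM + 1) values of ND replicate 1 had a mean Pearson correlation of 0.962 with ND replicates 2 and 3, and of 0.980 with HFD replicates 1 to 3. For ND replicate 2 these means were 0.965 with the other ND libraries and 0.945 with HFD. For ND replicate 3 they were 0.976 and 0.956. Cardiomyocyte markers summed to 24785 to 40776 TPM in ND, 39743 to 52198 TPM in sHFD and 28679 to 37334 TPM in HFD, with 2 of 10 called lower in HFD than in sHFD. None of the 10 was listed at 0 in all libraries. Of all genes tested, 23.9% were called lower in HFD than in sHFD and 9.59% lower than in ND. Fibroblast markers summed to between 7392 and 11247 TPM and endothelial markers to between 5260 and 8838 TPM, so the isolates also held transcripts of other cells. Red cell markers summed to 8047 to 18762 TPM in ND, 9309 to 12970 TPM in sHFD and 4252 to 7717 TPM in HFD, with 6 of 7 called lower in HFD than in sHFD and 1 than in ND. Smooth muscle and pericyte markers summed to 1264 to 1516 TPM in ND, 1634 to 2400 TPM in sHFD and 1355 to 1581 TPM in HFD, with 5 of 7 called lower in HFD than in sHFD and 3 than in ND. The 8 immune markers summed to between 366 and 517 TPM in ND, 276 and 361 TPM in sHFD and 205 and 231 TPM in HFD, with 5 called lower in HFD than in sHFD and 8 than in ND. The part of these other cells in the results was not tested. In bulk libraries such as these, fewer cells of a type and less RNA per cell cannot be told apart.

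The control sequences of the members are shown first, and their part in the diet differences was not tested. RefSeq promoter windows of GRCm38.p6 were at hand for 7 of the 10 genes, all but Hspa8, Hsp90aa1 and Hsp90ab1, and the 250 bases before each start were searched. Only exact letters were matched, so repeats with a changed letter would be missed. Hspa1b (chromosome 17, 34956429 to 34959238) and Hspa1a (chromosome 17, 34969359 to 34972156) are single-exon genes on the minus strand with 10120 bases between them. Their upstream windows, chr17:34959239-34959488 and chr17:34972157-34972406, are printed 5′ to 3′ with GAANNTTC, a pair of heat-shock repeat units, in capitals, and they differ at 3 of 250 bases.
Hspa1b: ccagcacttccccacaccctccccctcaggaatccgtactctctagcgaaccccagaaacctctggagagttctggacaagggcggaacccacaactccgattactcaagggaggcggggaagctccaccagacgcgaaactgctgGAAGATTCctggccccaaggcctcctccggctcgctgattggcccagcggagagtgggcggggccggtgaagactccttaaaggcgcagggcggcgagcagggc
Hspa1a: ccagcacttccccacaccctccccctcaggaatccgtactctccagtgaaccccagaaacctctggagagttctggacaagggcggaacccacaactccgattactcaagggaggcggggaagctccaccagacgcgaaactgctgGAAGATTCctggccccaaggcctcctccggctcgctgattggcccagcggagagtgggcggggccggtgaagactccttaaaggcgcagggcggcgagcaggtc

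Hspb1 (chromosome 5, 135887919 to 135889563, plus strand) holds the same pair at 2 places in its window, chr5:135887669-135887918, the first base of each lying 117 and 97 bases before the start. It is shown because Hspb1 is a member that passed the test against both other diets.
Hspb1: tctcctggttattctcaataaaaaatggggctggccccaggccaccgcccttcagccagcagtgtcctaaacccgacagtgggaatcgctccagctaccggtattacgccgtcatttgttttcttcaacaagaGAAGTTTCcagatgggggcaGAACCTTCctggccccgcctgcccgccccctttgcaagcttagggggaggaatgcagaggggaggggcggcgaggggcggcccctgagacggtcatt

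Hspd1 (chromosome 1, 55077833 to 55088243) and Hspe1 (chromosome 1, 55088148 to 55091317) lie on opposite strands. From the inner of the 2 annotated starts of Hspd1 they are transcribed away from each other, with 215 bases between that start and the start of Hspe1, while the outer start of Hspd1 lies inside Hspe1. In the 215 bases lies the longest run of repeat units found among the 7 genes, and it is shown because neither gene passed the test in any comparison. The stretch chr1:55088053-55088082, on the Hspe1 strand, has the units in capitals. The next line gives the single TTCNNGAA of Hsph1 (chromosome 5, 149616843 to 149636498, minus strand), in chr5:149636351-149636380. Both stretches overlap annotated exons. All 30 bases of the Hspd1 and Hspe1 stretch lie in an exon of the transcript Hspd1-202, and 26 of the 30 bases of the Hsph1 stretch in an exon of Hsph1-206.
Hspd1 and Hspe1: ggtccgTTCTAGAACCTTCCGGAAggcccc
Hsph1: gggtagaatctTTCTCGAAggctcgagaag

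The motif of 3 units, GAANNTTCNNGAA, was searched on both strands and matched 2 overlapping times in the shared Hspd1 and Hspe1 stretch and in no other of the 7 genes. It occurs in 0.514% of the 27025 genes with such windows. The shorter GAANNTTC and TTCNNGAA, which read the same on both strands and are contained in the longer motif, occur in 7.73% and 8.11% of those genes. No window of Dnajb1 (chromosome 8, 83608175 to 83612653) held any of these letters. The window at 83608298 to 83608547 has 245 of its 250 bases in an annotated exon of Dnajb1 itself. That at 83607925 to 83608174 overlaps an exon of Tecr by 47 bases. Hspa8 lies on chromosome 9 (40801276 to 40805202), Hsp90aa1 on chromosome 12 (110691036 to 110696395) and Hsp90ab1 on chromosome 17 (45567778 to 45573261).

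Seen over the 3 diets, the inducible cytosolic chaperones were high in all 3 HFD libraries and in ND replicate 1 and low in the other 5 libraries. The constitutive cytosolic forms differed less. Both genes of the mitochondrial pair had their lowest mean in ND, with Hspd1 highest in sHFD and Hspe1 highest in HFD. Against sHFD, 7 of the 10 genes rose in HFD and 0 fell, where 34.2% of all genes tested passed, 10.3% as higher and 23.9% as lower. Against ND, 2 rose and 0 fell, where 10.9% of all genes passed, 1.28% as higher and 9.59% as lower. No member passed the test between sHFD and ND, where 0.00732% of all genes did.

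**Figure D1:**
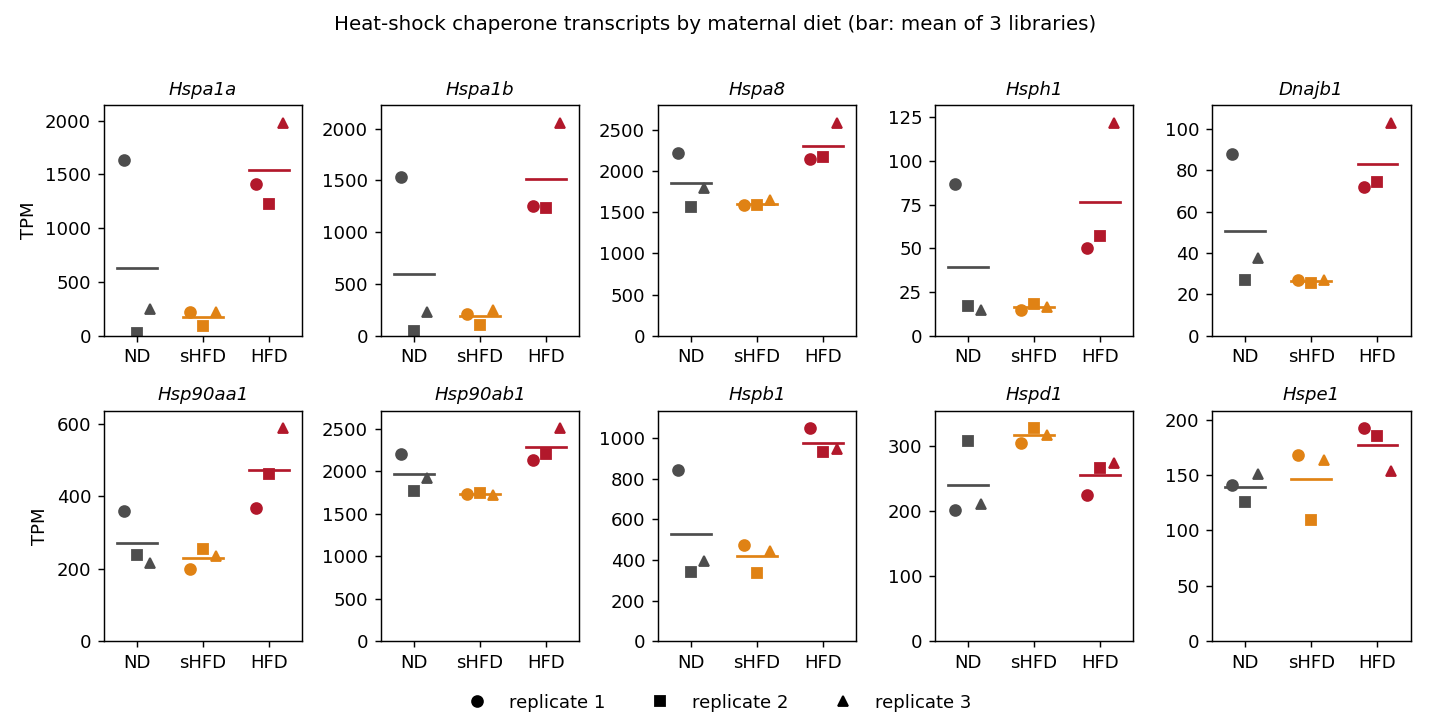
TPM (y axis, from 0, with a scale of its own in each panel) of the 10 chaperone genes by maternal diet (x axis). Each symbol is 1 library, its shape gives the replicate number, and the bar is the mean of 3 libraries. ND replicate 1 sits with the HFD libraries for Hspa1a (1633 TPM), Hspa1b, Hsph1 and Dnajb1, and Hspd1 is the member whose sHFD mean is the highest.

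Hspa1a and Hspa1b encode the stress-inducible HSP70, a chaperone kept low in unstressed cells. Their coding sequences, of 1923 and 1926 bases, are 99.5% identical, and 68.3% of the 100-base stretches of the Hspa1a coding sequence occur unchanged in Hspa1b. Over the whole transcripts the identity is 86.7%, and 47.1% of such stretches of Hspa1a occur in Hspa1b. Reads could therefore have been split between them, each single value is uncertain, and their sum is given as well.

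Hspa1a was at 1633, 22.9 and 244 TPM in ND replicates 1 to 3. In sHFD it was at 216, 88.2 and 223 TPM, and in HFD at 1410, 1221 and 1982 TPM. All 3 HFD libraries lay above all sHFD libraries, and ND ran across both, from the lowest value of all to the second highest.

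Hspa1b was at 1527, 40.2 and 229 TPM in ND, at 213, 103 and 252 TPM in sHFD and at 1250, 1236 and 2058 TPM in HFD. The ratio of Hspa1a to Hspa1b was 0.57 in ND replicate 2, where both were lowest, and between 0.85 and 1.13 in the other libraries. Both copies, as deposited, had ND replicate 2 lowest and HFD replicate 3 highest.

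Summed, the 2 genes made 3160, 63.1 and 473 TPM in ND, 365 ± 152 TPM in sHFD and 3052 ± 861 TPM in HFD (SD, n = 3 each). The HFD mean was 8.36 times the sHFD mean and 2.48 times the ND mean. Fitted as 1 feature on the log2(TPM + 1) scale, the sum rose against sHFD by 3.13 (SE 0.94, limma adjusted p = 0.0221). Against ND the difference was 2.70 (SE 0.94, adjusted p = 0.0771), which missed the threshold of 0.05. The highest ND library was 50.1 times the lowest, against 2.48 times in sHFD and 1.64 times in HFD.

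Taken singly, Hspa1a rose against sHFD by 3.21 (SE 1.01, limma adjusted p = 0.0276) and Hspa1b by 3.05 (SE 0.88, adjusted p = 0.0185). The call for Hspa1a was lost whenever an sHFD or HFD library was left out (adjusted p from 0.0521 without sHFD replicate 3 to 0.105 without sHFD replicate 2). That for Hspa1b was lost without sHFD replicate 2 (0.0774) or HFD replicate 3 (0.0604), and both were lost with no filter on low values (0.0723 and 0.0533).

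Hspa8 encodes the constitutive HSP70, also called HSC70, which folds new proteins and uncoats clathrin vesicles. It was at 2222, 1569 and 1795 TPM in ND, 1585, 1585 and 1650 TPM in sHFD and 2152, 2171 and 2593 TPM in HFD. The sHFD libraries lay within a narrow band below all HFD libraries, and ND replicate 1 lay among the HFD libraries. The HFD mean was 1.43 times the sHFD mean (log2 0.52, SE 0.18, limma adjusted p = 0.0454). Of the 9 fits that each left out 1 library, the call held in 2, those without ND replicate 1 or ND replicate 2, and was lost in the other 7 (adjusted p from 0.0677 without ND replicate 3 to 0.121 without HFD replicate 3). It was also lost under quantile normalization (0.0903) and with no filter on low values (0.0864). Within a library, inducible HSP70 amounted to 1.42, 0.04 and 0.26 times the Hspa8 level in ND. The same ratio was between 0.12 and 0.29 in sHFD and between 1.13 and 1.56 in HFD, so that the inducible pair exceeded the constitutive gene in the HFD libraries and in ND replicate 1.

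Hsph1 encodes HSP110, which exchanges the nucleotide of HSP70 and so resets its cycle. It was at 86.7, 17.1 and 14.5 TPM in ND, 14.4, 18.1 and 16.5 TPM in sHFD and 50.0, 57.1 and 122 TPM in HFD. Every HFD library was above every sHFD library, and ND replicate 1 was higher than 2 of the 3 HFD libraries. Hsph1 rose by 2.05 against sHFD (SE 0.51, limma adjusted p = 0.00987), from 16.3 ± 1.83 to 76.4 ± 39.7 TPM (SD, n = 3 each).

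Dnajb1 encodes HSP40, the J-protein that hands substrates to HSP70. It was at 88.1, 26.9 and 37.4 TPM in ND, 26.7, 25.4 and 26.8 TPM in sHFD and 71.9, 74.5 and 103 TPM in HFD. The sHFD libraries differed among themselves by a factor of 1.05 and lay below every library of both other diets. Against sHFD it rose by 1.61 (SE 0.32, limma adjusted p = 0.00347), the smallest adjusted p among the members, and this call held whichever of the 9 libraries was left out, as did those of Hsph1, Hsp90aa1 and Hspb1.

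HSP90 clamps around kinases, steroid receptors and myosin heads, and comes in an inducible form, Hsp90aa1, and a constitutive form, Hsp90ab1. Hsp90aa1 was at 359, 237 and 215 TPM in ND, 200, 255 and 236 TPM in sHFD and 369, 463 and 588 TPM in HFD. All HFD libraries lay above all ND and sHFD libraries, with ND replicate 1 only just below the lowest of them. Hsp90aa1 rose against sHFD by 1.02 (SE 0.22, limma adjusted p = 0.00465) and against ND by 0.82 (SE 0.22, adjusted p = 0.0332).

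Hsp90ab1, the most abundant of the 10 genes in its mean over all libraries and 41st of 18738, was at 2207, 1765 and 1918 TPM in ND, 1729, 1741 and 1723 TPM in sHFD and 2128, 2205 and 2506 TPM in HFD. Its HFD libraries lay above its sHFD libraries without overlap, yet the difference of 0.39 (SE 0.17) missed the threshold (limma adjusted p = 0.0914). The ratio of Hsp90aa1 to Hsp90ab1 was 0.14 ± 0.03 in ND, 0.13 ± 0.02 in sHFD and 0.21 ± 0.03 in HFD (SD, n = 3 each). That ratio was higher in every HFD library than in every other library. The exact two-sided permutation p was 0.1 against either diet, the smallest that 3 against 3 libraries allow, and 0.257 after adjustment over the 18 comparisons of 6 such ratios.

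Hspb1 encodes HSP27, a small heat-shock protein that holds unfolded proteins and binds actin. It was at 846, 340 and 393 TPM in ND, 473, 335 and 446 TPM in sHFD and 1049, 934 and 949 TPM in HFD. The HFD libraries lay within a factor of 1.12 of each other and above all others, ND replicate 1 included. Hspb1 rose against sHFD by 1.24 (SE 0.28, limma adjusted p = 0.00584) and against ND by 1.01 (SE 0.28, adjusted p = 0.0367).

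Hspd1 encodes HSP60, the barrel-shaped chaperonin of the mitochondrial matrix. It was at 201, 308 and 211 TPM in ND, 305, 328 and 318 TPM in sHFD and 225, 267 and 274 TPM in HFD. Its order of means, ND, then HFD, then sHFD, was found in no other member, and ND replicate 1, second highest for Hspa1a, was here the lowest of 9. The sHFD libraries lay above all HFD libraries, but the log2 difference of HFD from sHFD, -0.32 (SE 0.18), missed the threshold (limma adjusted p = 0.176).

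Hspe1 encodes HSP10, the lid of the HSP60 barrel. It was at 141, 125 and 151 TPM in ND, 168, 110 and 163 TPM in sHFD and 192, 185 and 154 TPM in HFD. All HFD libraries lay above all ND libraries, by a narrow margin, and they overlapped with sHFD. The log2 differences of HFD were 0.34 from ND (SE 0.18, limma adjusted p = 0.223) and 0.29 from sHFD (SE 0.18, adjusted p = 0.233), so neither passed.

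Although Hspd1 and Hspe1 share the interval described above, the ratio of their levels varied between libraries, within diets as well. The ratio of Hspe1 to Hspd1 was 0.70, 0.41 and 0.72 in ND, 0.55, 0.33 and 0.51 in sHFD and 0.85, 0.69 and 0.56 in HFD. Every HFD library was above every sHFD library in this ratio (exact two-sided permutation p = 0.1, adjusted p = 0.257 over the 18 comparisons), and HFD overlapped with ND.

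**Figure D2:**
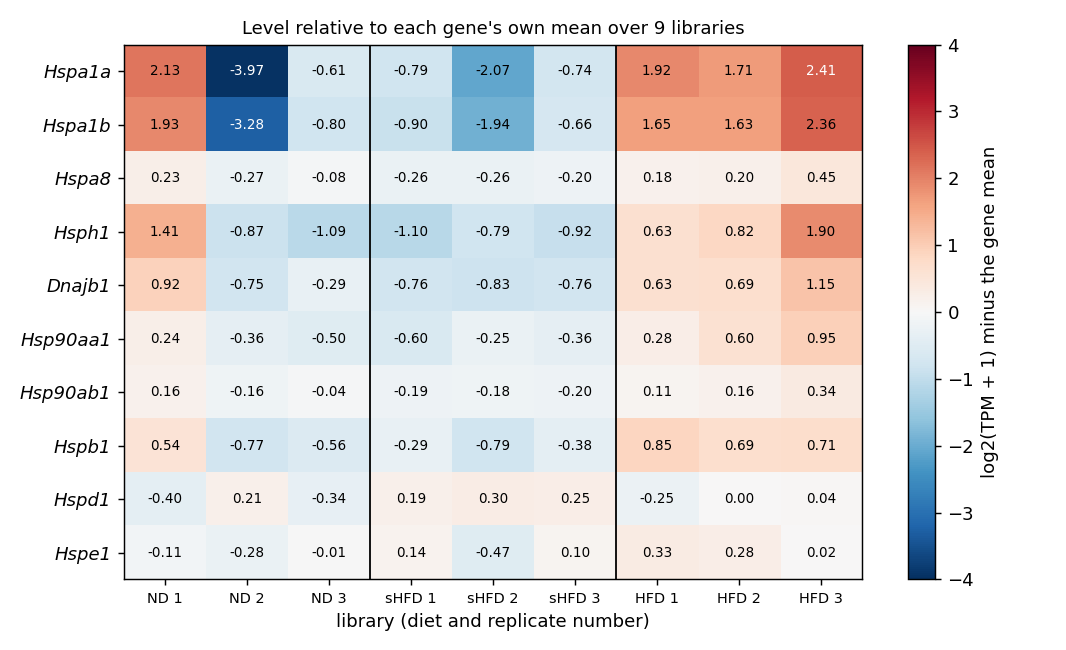
Level of each chaperone gene (rows) in each library (columns, by diet and replicate number) as log2(TPM + 1) minus the mean of that gene over the 9 libraries, with red above and blue below the mean. Hspa1a runs from -3.97 in ND replicate 2 to 2.41 in HFD replicate 3, whereas Hspd1 stays between -0.40 and 0.30.

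Against sHFD, then, the members that rose in HFD were Hspa1a, Hspa1b, Hspa8, Hsph1, Dnajb1, Hsp90aa1 and Hspb1. Median-ratio scaling left the members' count at 7 and quantile normalization at 6, without Hspa8. The 7 of 10 members called higher stand against 10.3% of the 13655 genes tested. The members were chosen with earlier results of these data known, so this contrast is not a test of them. Fitted as a sum, Hspa1a and Hspa1b counted once, and the count was 6. The median log2 difference was 1.13 over the members and -0.16 over all genes tested. The libraries did not overlap for 8 members that were higher and 1, Hspd1, that was lower, where 51.3% of all genes did not overlap, 16.6% being higher and 34.7% lower. Without ND replicate 1 the count was again 7. It was 4 without sHFD replicate 2 or HFD replicate 3 and 4 with no filter on low values, and the 4 were Hsph1, Dnajb1, Hsp90aa1 and Hspb1 in each of these fits.

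Against ND the members that rose in HFD were Hsp90aa1 and Hspb1, 2 of 10, where 1.28% of all genes were called higher. All 10 members had a positive log2 difference, with a median of 0.84 over the members and -0.14 over all genes tested. HFD and ND did not overlap for Hsp90aa1, Hspb1 and Hspe1, each higher in HFD. Of all genes 27.9% did not overlap, 5.00% being higher and 22.9% lower. Hsph1 differed by 1.30 (SE 0.51, limma adjusted p = 0.111), Dnajb1 by 0.86 (SE 0.32, adjusted p = 0.0938), Hspa1a by 2.83 (SE 1.01, adjusted p = 0.0845) and Hspa1b by 2.59 (SE 0.88, adjusted p = 0.0707), none of which passed.

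The count of calls depended on ND replicate 1. When it was left out, 6 members rose: Hspa1a by 4.30, Hspa1b by 3.92, Hsph1 by 2.09, Dnajb1 by 1.34, Hsp90aa1 by 1.04 and Hspb1 by 1.42 (limma adjusted p between 0.000664 and 0.00332). Left out in turn, ND replicates 2 and 3, sHFD replicate 3 and each of the 3 HFD libraries left 0 members past the threshold, sHFD replicate 1 left Hsp90aa1 alone and sHFD replicate 2 left both. Without ND replicate 2, the lowest library for HSP70, the difference of Hspa1a was 1.25. With only the ND and HFD libraries in the fit, or with no filter on low values, 0 passed, and under quantile normalization 1 passed, Hsp90aa1.

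Between sHFD and ND, limma called 0 members, against 2 at an unadjusted p under 0.05, Dnajb1 (log2 -0.74, unadjusted p = 0.0363, adjusted p = 0.672) and Hspd1 (log2 0.43, unadjusted p = 0.0296, adjusted p = 0.672). The 1 gene that passed among all those tested was lower in sHFD. Of the members, 8 had a negative and 2 a positive log2 difference. Libraries did not overlap for Dnajb1 and Hsp90ab1, both lower in sHFD, where 9.40% of all genes did not overlap, 4.50% being higher and 4.90% lower. The sign of the log2 difference for Hspa1a, Hspa1b, Hsph1, Hsp90aa1 and Hspb1 depended on ND replicate 1, without which it was positive. For Hspa1a it was also positive without sHFD replicate 2 (log2 0.054). The 3 comparisons share libraries and are not independent of each other.

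**Figure D3:**
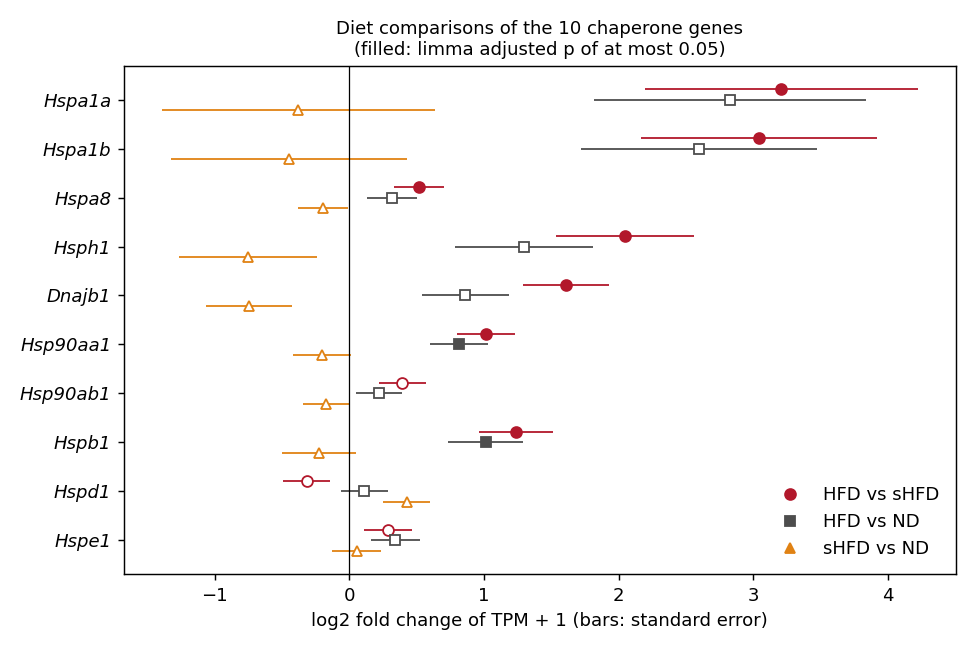
Log2 fold change of TPM + 1 (x axis) of the 10 chaperone genes (y axis) in the 3 diet comparisons, with the standard error as a bar and a filled symbol where the limma adjusted p was at most 0.05. HFD vs sHFD has 7 filled symbols, HFD vs ND has 2, for Hsp90aa1 and Hspb1, and sHFD vs ND has 0.

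The 10 genes made up a measurable part of the messenger pool. Together they took 0.931%, 0.445% and 0.521% of the total TPM in ND, 0.493%, 0.459% and 0.506% in sHFD and 0.890%, 0.881% and 1.13% in HFD. Hspa1a and Hspa1b alone took 0.0063% in ND replicate 2 and 0.404% in HFD replicate 3. Averaged over all libraries the order of levels was Hsp90ab1 (1991 TPM), Hspa8 (1925), Hspa1a (782), Hspa1b (768), Hspb1 (641), Hsp90aa1 (325), Hspd1 (271), Hspe1 (154), Dnajb1 (53.4) and Hsph1 (44.0). Only Hspd1 and Hspe1, and Hspe1 and Dnajb1, had ranges over the 9 libraries that did not meet, and every other pair of neighbours in this order overlapped. In ND replicate 2 and the 3 sHFD libraries Hspd1 was above both Hspa1a and Hspa1b.

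Hsf1, the main stress-responsive factor, was at 46.8, 38.6 and 36.2 TPM in ND, 36.8, 43.7 and 32.2 TPM in sHFD and 34.3, 35.3 and 29.6 TPM in HFD. Its HFD libraries were all below its ND libraries, and the log2 difference of -0.28 did not pass (limma adjusted p = 0.29). Hsf2, a factor of development and of proteasome inhibition, was at 24.4 ± 1.60 TPM in sHFD and 35.0 ± 5.48 TPM in HFD (SD, n = 3 each), a rise of 0.50 (adjusted p = 0.0458) that was lost without any one of 5 libraries, namely the 3 of sHFD and HFD replicates 2 and 3 (adjusted p from 0.0828 to 0.135). Of 4 tested genes of the factor group, Hsf2 was the only one called in HFD vs sHFD and none was called in HFD vs ND, in limma's test, with 0 at an unadjusted p under 0.05.

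Other chaperone groups were read against the same shares of all genes, 10.3% higher and 23.9% lower in HFD vs sHFD and 1.28% and 9.59% in HFD vs ND. Among 8 further HSP70 and HSP110 genes, Hspa2, a testis-rich HSP70 also made in other tissues, and Hspa4l, an HSP110 relative, rose against sHFD by 1.06 (limma adjusted p = 0.00554) and 0.61 (0.0296). Hspa12b, a distant HSP70 relative of endothelium, and Hspa12a fell. Hspa12b was at 35.7 ± 4.53 TPM in HFD and at 119 ± 13.0 TPM in sHFD (SD, n = 3 each), with a log2 difference of -1.70 (adjusted p = 0.000356), and was also lower than in ND, with a log2 difference of -1.10 (adjusted p = 0.00664, lost without ND replicate 3 or HFD replicate 2, 0.0514 and 0.0535). Endothelial markers summed to between 6129 and 7905 TPM in sHFD and 6359 and 6621 TPM in HFD. Of these 7 markers 1, Kdr, was called lower in HFD than in sHFD and 0 higher, with a median log2 difference of 0.016. Without overlap 3 were higher and 1 lower in HFD, where 16.6% and 34.7% of all genes were. Hspa4l lost its call without any one of sHFD replicates 1 and 3 or the 3 HFD libraries (adjusted p from 0.0501 to 0.11).

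Of 15 other J-proteins, 3 rose and 4 fell against sHFD, and 6 rose and 4 fell under median-ratio scaling. Dnajb4, a close relative of Dnajb1, rose from 48.1 ± 9.34 to 108 ± 30.6 TPM (SD, n = 3 each; log2 1.13, limma adjusted p = 0.00584), and Dnajb6, which keeps aggregating proteins soluble and is mutated in a muscular dystrophy, rose by 0.79 (adjusted p = 0.00401). Dnajb2 fell, with a log2 difference of -1.43 (adjusted p = 0.00215). Against ND, Dnajb4 was higher (log2 0.84, adjusted p = 0.0494) and Dnajb2 lower (log2 -0.88, adjusted p = 0.0431), and when single libraries were left out Dnajb4 passed in 1 (without ND replicate 1) and Dnajb2 in 2 (without ND replicate 1 or HFD replicate 3) of 9 fits. Both of these calls were also lost with no filter on low values or only the 2 diets compared, that of Dnajb2 under median-ratio scaling (0.0568) and quantile normalization (0.0923), and that of Dnajb4 with a pseudocount of 0.1 (0.0506) or no intensity trend (0.0617).

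Of 18 co-chaperones that work with HSP90, 7 fell and 1 rose against sHFD, with a median log2 difference of -0.30 against -0.16 over all genes. Under median-ratio scaling 4 fell and 2 rose, and 2 fell and 1 rose without sHFD replicate 2 or without HFD replicate 2. Stip1, Ahsa1, Ahsa2, Fkbp4, Ppp5c and Unc45b were among those that fell. Fkbp4, an immunophilin of steroid receptor complexes, was at 110, 188 and 155 TPM in ND, 185, 185 and 167 TPM in sHFD and 99.7, 92.7 and 95.1 TPM in HFD, so that ND replicate 1 was again the ND library nearest to HFD. Its log2 difference was -0.89 from sHFD (limma adjusted p = 0.00375) and -0.62 from ND (adjusted p = 0.0452), the latter past the threshold in 1 of 9 fits with a library left out, that without ND replicate 1, and lost under median-ratio scaling (0.0809) and quantile normalization (0.061). Unc45b, the muscle chaperone that folds myosin with HSP90, differed from sHFD by -0.66 (adjusted p = 0.0167) and from ND by -0.68 (adjusted p = 0.0367). Ahsa2, of the family that speeds the HSP90 ATPase, differed from sHFD by -0.81 (adjusted p = 0.00818). The 1 that rose was Fkbp5, a glucocorticoid-responsive immunophilin, by 0.94 (adjusted p = 0.0166), a call lost without sHFD replicate 3 or HFD replicate 3 (adjusted p = 0.0728 and 0.0567). Against ND the call for Unc45b held in 3 of 9 fits with a library left out, those without ND replicate 1, sHFD replicate 2 or HFD replicate 3, and was lost under median-ratio scaling (0.0547). Its call against sHFD was lost without sHFD replicate 1 or 2 or HFD replicate 1 or 2 (adjusted p from 0.0522 to 0.0845).

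Of 9 partner and exchange factors of HSP70, 1 rose and 1 fell against sHFD, and under median-ratio scaling 2 rose and 0 fell. Bag3, a co-chaperone that ties HSP70 to small heat-shock proteins at the Z-disc, was at 227, 99.1 and 98.4 TPM in ND, 96.8, 119 and 87.8 TPM in sHFD and 167, 170 and 270 TPM in HFD, with ND replicate 1 again among the HFD values. It rose by 0.97 against sHFD (limma adjusted p = 0.0223), a call lost without sHFD replicate 1 or 3 or HFD replicate 3 (adjusted p from 0.0626 to 0.087). Stub1, a ubiquitin ligase that marks HSP70 clients for destruction, fell, with a log2 difference of -0.51 (adjusted p = 0.0223) lost under median-ratio scaling (0.0715) or without sHFD replicate 1 or 2 or HFD replicate 2 or 3 (0.0621 to 0.0823).

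Among 8 other small heat-shock proteins, Cryab, the alphaB-crystallin of the Z-disc, rose from 719 ± 62.8 TPM in sHFD to 1099 ± 259 TPM in HFD (SD, n = 3 each; log2 0.59, limma adjusted p = 0.0318). ND replicate 1 was at 582 TPM for Cryab, with the other ND libraries at 681 and 576 TPM, so this gene did not share the ND pattern of Hspb1. Hspb6, a small heat-shock protein of muscle, fell (log2 -0.92, adjusted p = 0.00428), as did the muscle gene Hspb3 (log2 -1.18, adjusted p = 0.033). Against ND, Cryab was higher by 0.82 (adjusted p = 0.0217), a call lost without ND replicate 3 or HFD replicate 1 or 2 (0.0921 to 0.11). Against sHFD its call was lost without any one of the sHFD libraries or HFD replicate 1 or 2 (0.0603 to 0.124). That of Hspb3 was lost without any one of the sHFD libraries or HFD replicate 2 or 3 (0.0616 to 0.119), under median-ratio scaling (0.0589) and under quantile normalization (0.11).

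The cytosolic chaperonin, a ring that folds actin and tubulin, and its partner prefoldin had 0 of 14 genes called against sHFD and 0 of 14 against ND in limma's test, with 2 and 0 at an unadjusted p under 0.05. Under median-ratio scaling 3 of the 14 passed as higher against sHFD. Of 18 other mitochondrial chaperones and proteases, 6 fell and 0 rose against sHFD, with a median log2 difference of -0.35. Dnaja3, the matrix J-protein, was at 22.9, 68.8 and 39.6 TPM in ND, 65.4, 76.4 and 67.3 TPM in sHFD and 17.9, 20.6 and 20.1 TPM in HFD, a log2 difference from sHFD of -1.78 (limma adjusted p = 0.00156). Dnajc11, of the inner membrane organising machinery, differed by -1.65 (adjusted p = 0.00132) and the protease gene Oma1 by -1.42 (adjusted p = 0.00419). Against ND, Dnaja3 and Oma1 were lower, with log2 differences of -0.99 and -1.01 (adjusted p = 0.0439 and 0.045), and each passed in 1 of 9 fits with a library left out, that without ND replicate 1. Quantile normalization lost both calls (0.0702 and 0.0836), and median-ratio scaling that of Dnaja3 (0.0565).

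Of 15 chaperones of the endoplasmic reticulum, 2 rose and 1 fell against sHFD, and 5 rose and 1 fell under median-ratio scaling. Hspa5, also called BiP, the HSP70 of that compartment, was at 955, 572 and 585 TPM in ND, 414 to 576 TPM in sHFD and 950 to 1254 TPM in HFD, a rise of 1.12 (limma adjusted p = 0.00312). Dnajb9, its J-protein, rose by 1.15 (adjusted p = 0.00545). Hyou1, the HSP110 relative there, fell against both diets, with log2 differences of -0.96 (adjusted p = 0.00333) and -0.77 (adjusted p = 0.0255, lost without ND replicate 2 or 3 or HFD replicate 1 or 2, adjusted p from 0.0753 to 0.117).

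Of 7 other heat-inducible genes 5 rose against sHFD and 0 fell, with Ier5, Zfand2a and Sqstm1 among those that rose. Ier5, which modifies heat-shock factor activity, was at 90.8, 39.6 and 58.9 TPM in ND, 32.4, 41.3 and 34.6 TPM in sHFD and 92.2, 96.7 and 128 TPM in HFD (log2 1.52 against sHFD, limma adjusted p = 0.0017). Zfand2a, a proteasome-linked zinc finger gene, rose by 1.41 (adjusted p = 0.0046) and Sqstm1, the autophagy receptor p62, by 0.80 (adjusted p = 0.00852). Their count was 3 without any one of the sHFD libraries or HFD replicate 1 or 2. In limma's test 0 of the 7 passed against ND, with 3 at an unadjusted p under 0.05.

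**Figure D4:**
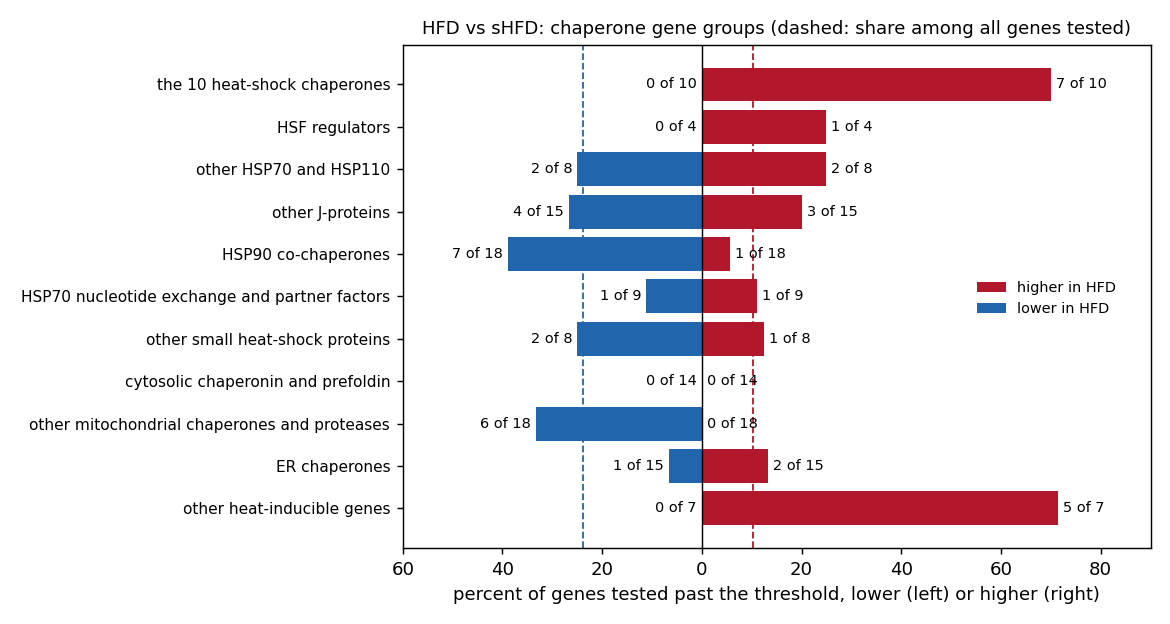
Percent of the tested genes of each chaperone group (y axis) that passed the limma threshold as lower (blue, left of 0) or higher (red, right of 0) in HFD vs sHFD, with the counts beside the bars. The dashed lines mark the shares among all 13655 genes, 23.9% lower and 10.3% higher. The 10 chaperones reach 7 of 10 higher and the HSP90 co-chaperones 7 of 18 lower, which became 4 of 18 under median-ratio scaling.

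Immediate-early genes, which respond within minutes to many stimuli, were measured in the same libraries. The 21 genes summed to 10885, 3235 and 7208 TPM in ND, 2625, 3099 and 2912 TPM in sHFD and 7357, 7001 and 11406 TPM in HFD. Of the 21, 20 rose against sHFD, where 10.3% of all genes did. Against ND limma called 0, and 5 had an unadjusted p under 0.05, as did 4067 of all 13655 genes tested. Without ND replicate 1, 9 passed as higher, where 987 of all genes did. Unlike Hspa1a, Hspa1b and Hsph1, the 21 genes had a sum in ND replicate 3 above that of HFD replicate 2. Between sHFD and ND limma called 0 of the 21, but 19 had an unadjusted p under 0.05, as did 1005 of the 13655 genes. Without overlap 8 were lower in sHFD, where 4.90% of all genes were. Without ND replicate 2, 18 were called lower, where 138 of all genes were. The part of the immediate-early genes in the chaperone differences was not tested.

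The genes nearest to the members in their course over the 9 libraries were found by the root mean square difference between centred log2(TPM + 1) profiles and the mean profile of the 10 members. The search covered 10958 other genes of at least 5 TPM on average, with clone and predicted gene names left out. Among them, the 10 nearest were Serpina3n, Arid5b, Frat2, Mylip, Adamts4, Glul, Baiap2, Gna13, Shroom2 and Klf6, at differences of 0.19 to 0.23. Klf6 is also among the 21 immediate-early genes. Serpina3n, an acute-phase protease inhibitor, was at 18.0, 5.07 and 8.88 TPM in ND, 7.68, 4.71 and 7.48 TPM in sHFD and 14.7, 15.1 and 16.9 TPM in HFD. Since these 10 genes were chosen by their levels in the same libraries, their differences between diets follow from the choice and were not read as tests. Among the members themselves, each set against the mean of the other 9, Hspb1 (0.21) and Dnajb1 (0.24) were nearest and Hspa1a (1.54), Hspa1b (1.29) and Hspd1 (0.97) farthest. This difference counts the size of the swings as well as their course. Hspa1a and Hspa1b had the sign of the members' mean profile in every library and swung more widely. Hspd1 had the opposite sign in ND replicates 1 and 2, all sHFD libraries and HFD replicate 1.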

How the data were processed

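The authors deposited 1 table of TPM values for 18738 genes in 9 libraries, and the columns add up to nearly the same total, 999999 to 1000001. The submitters' processing notes list RSEM 1.3.1 and the GRCm38 build, with no role given. Aligner, annotation and depth: not given in the sources used here, so no counting interval is given. Columns CON, MID and HIGH were read as ND, sHFD and HFD by name and replicate number. All 10 members passed the filter of a mean of at least 1 TPM, which kept 13655 genes. A linear model of log2(TPM + 1) on diet was fitted with limma 3.58.1 (R 4.3.3) over the 9 libraries, with an intensity trend and 6 residual degrees of freedom. Two-sided p-values were Benjamini-Hochberg adjusted over all genes, with a threshold of 0.05. Fold changes on this scale understate those of low genes. The test was tested on simulated data. The members and gene lists were chosen with earlier results of these data known. Genes named from each chaperone list were the up to 3 with the largest change past the threshold in HFD vs sHFD and in HFD vs ND, with a mean of at least 5 TPM, beside Hsf1, Hsf2 and the 10 nearest profiles; other names in lists of calls were added after their values were seen. Promoters and positions came from RefSeq (GRCm38.p6), and coding sequences and exons from GENCODE M21 (GRCm38). Alternatives were another pseudocount, 2 other filters, 2 scalings, totals without the members, only the diets compared, no trend, the summed HSP70 genes, a replicate block and each library left out.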

Additional observations from a re-analysis of the deposited data

How the results depend on the processing

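Limits: TPM keeps no depth, and 3 libraries a diet cannot reach an exact permutation p under 0.1. ND varied widely, with Hspa1a at 1633 TPM in replicate 1, 22.9 TPM in replicate 2 and 244 TPM in replicate 3. In HFD vs ND, 1484 genes passed, but 763 with no filter on low values and 420 with only the 2 diets compared, and between 32 and 3842 with a library left out. Members called there were 2, but 0 with no filter, 0 with only the 2 diets compared, 1 under quantile normalization, 4 with the replicate block and 0 to 6 with a library left out. In HFD vs sHFD, 4665 genes passed, with 2696 to 5458 when a library was left out. Members called there were 7, but 4 with no filter and 4 to 7 with a library left out. In sHFD vs ND, 1 gene passed, but 0 with a pseudocount of 0.1, with no filter, with a mean of at least 5 TPM and with the replicate block, 2 with only the 2 diets compared and 0 to 360 with a library left out, while members called stayed at 0 in every fit run. Scaling moved the median of all genes from -0.16 to -0.03 (median ratio) and -0.02 (quantile) in HFD vs sHFD, and the higher and lower calls from 1406 and 3259 to 2436 and 2710 and to 2401 and 2407. In HFD vs ND the median moved from -0.14 to -0.02 and 0.00022, and the calls from 175 and 1309 to 530 and 1055 and to 427 and 637. Replicate numbers are not stated to pair the libraries. Same-numbered libraries correlated in their deviations from the diet means between -0.287 and 0.413, and differently numbered ones between -0.352 and 0.347. With 3 libraries a diet these deviations sum to 0, so the correlations cannot decide whether the libraries were paired. With the block, Hspa1a and Hspa1b passed in HFD vs ND (limma adjusted p = 0.041 and 0.0385), Hspa8 no longer passed in HFD vs sHFD (0.0545) and no other member's call changed. Other named genes lost with the block were Dnajb2 (0.0521), Dnajb4 (0.0621), Fkbp4 (0.0516) and Unc45b (0.0502) in HFD vs ND and Hsf2 (0.0568) in HFD vs sHFD.

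With a library left out, signs turned for Hspd1 in HFD vs ND (from -0.0024 to 0.30) and, in sHFD vs ND, for Hspa1a (-1.96 to 1.09), Hspa1b (-1.73 to 0.87), Hsph1 (-1.21 to 0.043), Hsp90aa1 (-0.35 to 0.021), Hspb1 (-0.48 to 0.18), Hspe1 (-0.053 to 0.25), Fkbp5 (-0.45 to 0.081), Bag3 (-0.58 to 0.022), Hspb3 (-0.15 to 0.76), Unc45b (-0.11 to 0.087) and Hyou1 (-0.00039 to 0.29). Unc45b was also at 0.0044 there under quantile normalization. None of these had passed the test. What lay behind the changes between fits was not tested.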
